A study of Homo sapiens with 2 samples.

Results

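NeuroD1 peaks near 10 genes of the SOX family were examined in the MYCN-amplified neuroblastoma line IMR-32, whose genotype is given as wild type in the labels. The genes were chosen by name, with earlier results of these data known. A peak was counted for a gene when it overlapped the RefSeq GRCh38 gene body or lay up to 50 kb from either end. By this rule 8 of the 6183 deposited peaks lay near a SOX gene, and 3 of the 10 genes had a peak. The study deposited 1 ChIP library made with an antibody to NeuroD1, and 1 input library without antibody, which was not analysed here. There was no replicate, so every value below describes 1 library of 1 cell line, no test between genes was run, and intervals cover counting error only. The labels name a NeuroD1 antibody whereas the written ChIP-seq protocol names one to H3K27Ac, so the peaks are NeuroD1 peaks as labelled.

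SOX proteins bind DNA through an HMG box and are grouped by the likeness of that box. SOX4, SOX11 and SOX12 form the SoxC group, which is known for its action in young neurons and sympathetic neuroblasts after they leave the progenitor state. SOX2 is a SoxB1 factor that maintains neural progenitors. SOX8, SOX9 and SOX10 are SoxE factors of neural crest and glia, among which SOX10 marks Schwann cell precursors. SOX5, SOX6 and SOX13 are SoxD factors, which lack a transactivation domain and often act with SoxE proteins. NeuroD1 is a proneural bHLH factor that drives neuronal differentiation and binds E-boxes, short sites with the letters CANNTG, as a dimer with E proteins. The comparison asks whether its peaks fall at the neuronal SOX genes or at the progenitor and glial ones.

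All 3 SoxC genes had a peak, and none of the 7 progenitor and glial genes had one. SOX4 had 2 peaks, SOX11 had 2 and SOX12 had 4. For SOX2, SOX5, SOX6, SOX8, SOX9, SOX10 and SOX13, 0 peaks lay in the body or within 50 kb. Among all 19970 protein-coding genes on the chromosomes of the peak list, 7992 (40.0%) had a peak by the same rule. Taken as a set, 3 of the 10 SOX genes (30.0%) had a peak, and 10 genes are too few to tell this share from 40.0%. The split between the SoxC genes and the other 7 rests on few genes, and the difference was not tested. The groups, too, were chosen with earlier results of these data known.

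**Figure D1:**
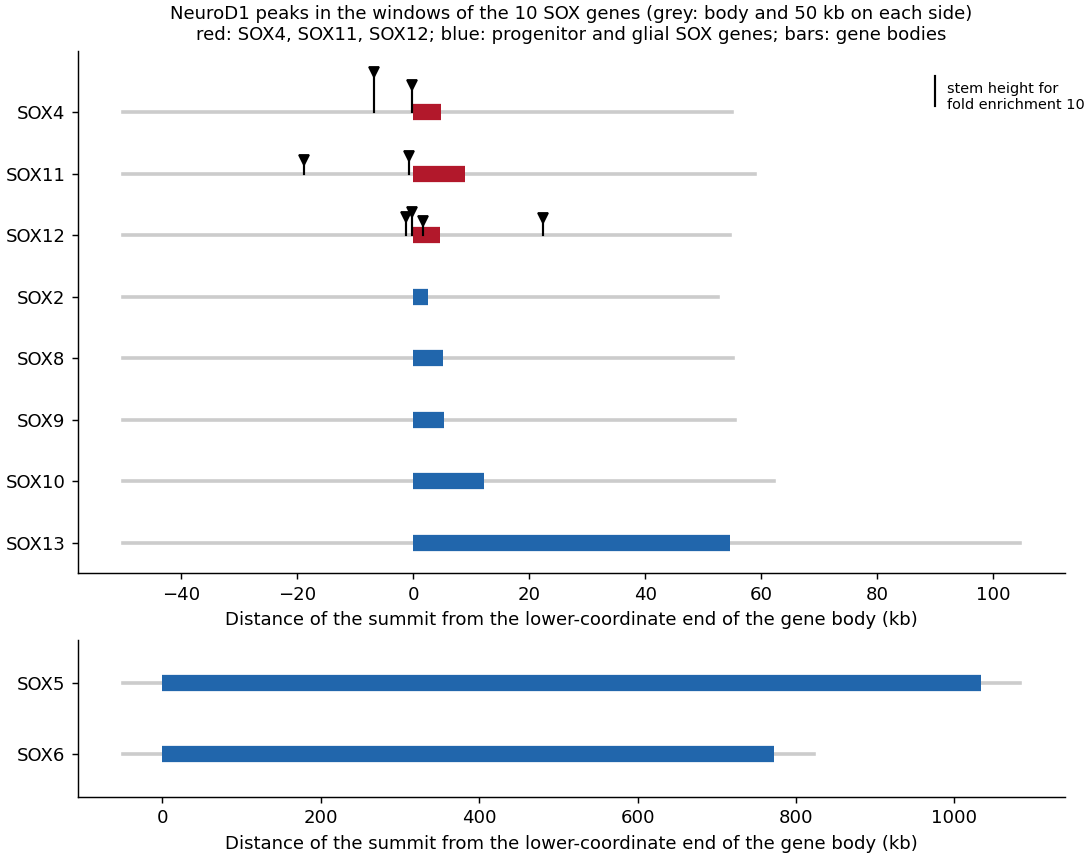
Each row shows a gene body (bar) with 50 kb on each side (grey line), on an axis of kb from the lower-coordinate end of the body (SOX5 and SOX6 on a wider axis of their own), and each stem is the summit of a NeuroD1 peak with a height in proportion to its fold enrichment. The 8 peaks lie near SOX4, SOX11 and SOX12 (red), most of them close to the lower-coordinate end, and the 7 progenitor and glial genes (blue) have none.

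The promoter sequences of the SoxC genes were read first for E-boxes. RefSeq promoter windows of GRCh38.p14, from 250 bases before to 50 after a gene start, were held for 6 of the 10 genes, namely SOX2, SOX4, SOX5, SOX6, SOX12 and SOX13, and not for SOX8, SOX9, SOX10 and SOX11. The windows of SOX4 and SOX12 are shown because a peak overlapped each of them, on the forward strand at chr6:21593501-21593800 and chr20:325302-325601. Letters in capitals mark every match to CANNTG on either strand.
SOX4: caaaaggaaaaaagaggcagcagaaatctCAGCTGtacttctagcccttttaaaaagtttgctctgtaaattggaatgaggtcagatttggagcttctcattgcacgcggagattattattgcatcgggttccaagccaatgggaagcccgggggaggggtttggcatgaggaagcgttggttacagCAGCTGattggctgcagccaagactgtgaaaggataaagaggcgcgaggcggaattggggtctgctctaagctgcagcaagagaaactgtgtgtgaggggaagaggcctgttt
SOX12: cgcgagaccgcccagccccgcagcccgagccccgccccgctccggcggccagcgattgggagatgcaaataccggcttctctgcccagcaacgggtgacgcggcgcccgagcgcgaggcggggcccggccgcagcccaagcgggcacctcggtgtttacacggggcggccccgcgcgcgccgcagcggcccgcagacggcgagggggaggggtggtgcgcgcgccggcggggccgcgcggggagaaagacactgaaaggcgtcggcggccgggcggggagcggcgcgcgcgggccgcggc

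The SOX4 window held 2 matches to CANNTG, both with the letters CAGCTG. The nearer match began 63 bases before the SOX4 start and its centre lay 33.5 bases from the summit of the peak. The other began 221 bases before the start and was centred 124.5 bases from that summit. No CANNTG match was found in the SOX12 window, although a peak overlapped it. Over all 22131 promoter windows of protein-coding genes, 65.1% held a CANNTG match and 18.0% held CAGCTG. Where a window held a summit, 26.6% of 2041 windows had a CANNTG match centred within 50 bases of it, and 7.79% had CAGCTG. A match centred within 50 bases of the summit, as at SOX4, was counted at a minority of promoter summits. The share that base composition alone would give was not computed. Letters beyond a window were not searched, so matches are missed where a summit lies near a window edge. A match is a description of the letters, not evidence of binding.

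Promoters without a peak also held E-boxes. A match of each of SOX2, SOX6 and SOX13 is shown in a stretch of 60 bases to set beside SOX4, with CANNTG matches in capitals. They lie at chr3:181711919-181711924 on the forward strand, at chr11:16356687-16356692 on the reverse strand in the fifth of the 5 windows of SOX6, and at chr1:204072971-204072976 on the forward strand.
SOX2: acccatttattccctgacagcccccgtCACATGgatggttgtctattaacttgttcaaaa
SOX6: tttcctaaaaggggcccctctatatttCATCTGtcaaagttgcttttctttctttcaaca
SOX13: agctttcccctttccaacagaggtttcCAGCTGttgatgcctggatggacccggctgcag

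SOX13 had the letters CAGCTG beginning 144 bases before its start, the same 6 letters as both SOX4 matches. SOX6 had CATCTG, which reads CAGATG on the other strand, beginning 146 bases before the gene start of that window. CAGATG on either strand was present in 2 of the 5 SOX6 windows and in 12.2% of all windows. The SOX2 match, CACATG, began 6 bases before the SOX2 start. The SOX5 window held no match. Windows overlapped by a peak held CANNTG in 56.2% of 2454 cases, and windows without one in 66.2% of 19677, a description over all promoters in which base composition was not taken into account. These shares cover promoter windows only. The paper searched its NeuroD1 binding sites for motifs and reports that motifs of NeuroD1 were enriched there.

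SOX4, a SoxC factor of neuronal differentiation, carried the strongest peak of the family. The gene lies on chromosome 6 from 21593751 to 21598619 in GRCh38, on the forward strand, with no other protein-coding gene within 50 kb. Its upstream peak, at chr6:21586989-21587515, was enriched 13.6-fold at a −log10 q of 24.7. Fold enrichment is the ChIP pileup at the summit over the local background, with the same constant added to each. It is therefore lower than the reads divided by the background. The −log10 q is the strength of the call after correction over the genome. The summit lay 6655 bases before the SOX4 start and held 29 ChIP reads (19.4 to 41.6, the exact 95% Poisson interval, as for all read counts below) over a background of 1.17. With the background held fixed, those limits equal 9.22-fold and 19.2-fold enrichment. This peak ranked 317 of 6183 by fold enrichment and 447 by −log10 q, and 94.9% of all peaks had a lower fold enrichment. It was 527 bp wide, against a median of 220 bp, and 96.7% of peaks were narrower.

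The promoter peak of SOX4, at chr6:21593581-21593884, overlapped the start of the gene. It was enriched 9.16-fold at a −log10 q of 11.8, with 18 reads at the summit (10.7 to 28.4) over a background of 1.04. The summit lay 94 bases before the start, and the peak ranked 1232 by fold enrichment. The read intervals of both SOX4 peaks overlap, so their order in strength is not fixed at this depth. They lay 6561 bases apart by summit, and SOX4 was the nearest gene of any type to each of them.

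SOX11, the SoxC factor at the distal end of 2p, had peaks of lower enrichment. The gene lies on chromosome 2 from 5692384 to 5701385, and as for SOX4 no other protein-coding gene lay within 50 kb. As background, SOX11 is read toward higher coordinates, so its lower end is its start. The nearer peak, at chr2:5691689-5691840, ended 544 bases before that end and did not overlap the body. It was enriched 5.94-fold at a −log10 q of 5.11, with 13 reads at the summit (6.92 to 22.2) over a background of 1.31. Its summit also lay 629 bases from the start of LINC01248, a long non-coding RNA gene on the reverse strand. The call is near both LINC01248 and SOX11, and the data do not tell which gene it serves.

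The farther SOX11 peak, at chr2:5673554-5673731, lay 18.7 kb from the gene inside LINC01248. Enriched 4.55-fold at a −log10 q of 2.40, with 10 reads (4.80 to 18.4) over a background of 1.37, it was the weakest of the 8 peaks. By −log10 q it ranked 6086 of 6183, close to the end of the list. The background at both SOX11 summits was close to the median of 1.31 over all peaks.

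Among genes as isolated as SOX4 and SOX11, the share with a peak was lower than among all protein-coding genes. Of 2230 protein-coding genes with no other protein-coding gene within 50 kb, 591 (26.5%) had a peak and 8.48% had 2 or more, as SOX4 and SOX11 did. Over all protein-coding genes 17.1% had 2 or more peaks. SOX2, SOX5 and SOX9 were isolated by the same measure and had none.

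SOX12, the third SoxC gene, had the most peaks, and its window was also the most crowded. The gene lies on chromosome 20 from 325552 to 330224 on the forward strand, with the protein-coding genes C20orf96, LOC101929937, NRSN2 and ZCCHC3 within 50 kb. Of all protein-coding genes, 3.36% had 4 or more peaks within 50 kb. The strongest SOX12 peak, at chr20:325271-325554, overlapped the first bases of the gene. It was enriched 7.71-fold at a −log10 q of 8.34, with 15 reads (8.4 to 24.7) over a background of 1.04. Its summit lay 157 bases before the SOX12 start and 143 bases from the start of NRSN2-AS1, a long non-coding RNA gene read the other way, so the peak sits between a pair of divergent starts.

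The other SOX12 peaks lay on either side of this promoter. The peak at chr20:324250-324617 lay 935 bases before the gene, inside NRSN2-AS1. It was enriched 6.27-fold at a −log10 q of 5.21, with 12 reads (6.20 to 21.0), and at 368 bp it was wider than 87.4% of peaks. The peak at chr20:327255-327418 lay inside SOX12, with its summit 1777 bases after the start, and was enriched 4.91-fold at a −log10 q of 3.98, with 14 reads (7.65 to 23.5) over a background of 2.0. These summits were 1009 and 1934 bases from that of the promoter peak.

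The fourth peak in the SOX12 window belonged by position to a neighbour. It lay at chr20:347867-348051, 17.6 kb beyond the gene, and its summit was 73 bases from the start of NRSN2, which encodes a neurensin of vesicle membranes. It was enriched 5.89-fold at a −log10 q of 6.43, with 17 reads (9.90 to 27.2). When a peak was kept only where the SOX gene was the nearest protein-coding gene, 7 of the 8 peaks remained, and the NRSN2 peak was the 1 lost.

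Over the 8 peaks the median fold enrichment was 6.10, against 6.79 over all 6183 peaks, and the range was 4.55 to 13.6. Both SOX4 peaks and the SOX12 promoter peak lay above the median of all peaks, and the other 5 lay below it. The 95% intervals of all SOX11 and SOX12 peaks spanned the median of the list. The interval of the upstream SOX4 peak was the only one of the 8 that lay wholly above it. Reads at the 8 summits ran from 10 to 29, against a median of 17 over the list, so these are mostly calls of ordinary or low strength.

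**Figure D2:**
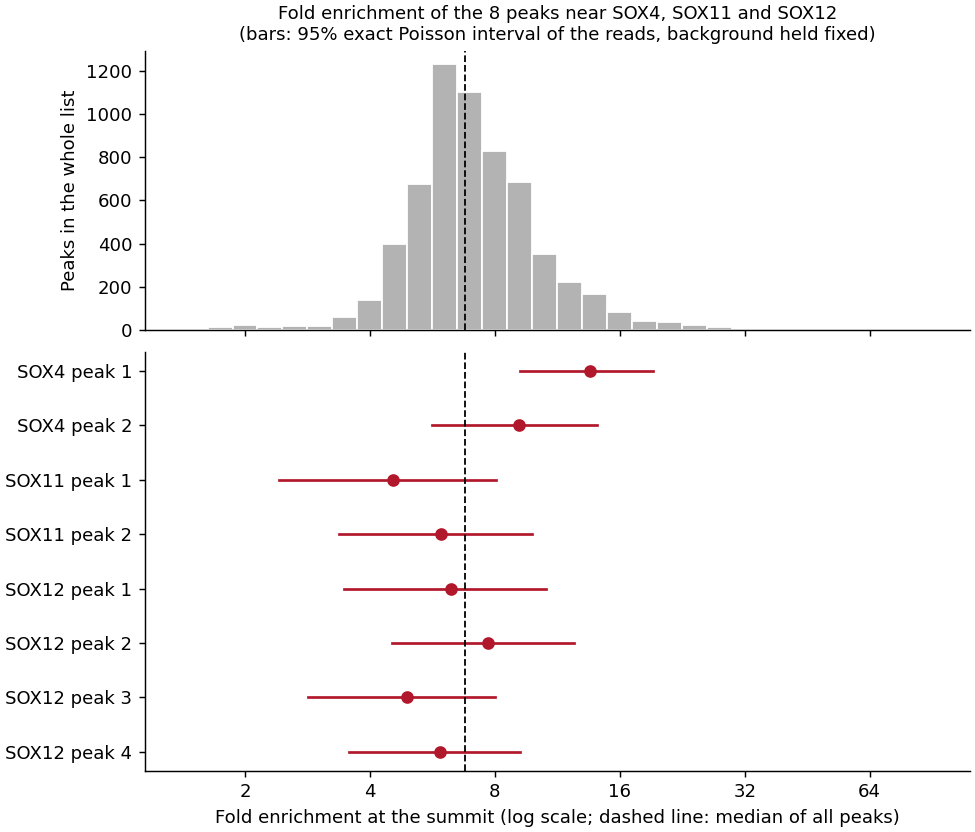
The upper panel gives the number of peaks in the whole list by fold enrichment on a log scale, and the lower panel gives the 8 peaks near SOX4, SOX11 and SOX12, numbered along the chromosome, with bars for the 95% exact Poisson interval of the reads at a fixed background. The upstream SOX4 peak (13.6) stands above the median of all peaks (dashed, 6.79) with its whole interval, and the others lie between 4.55 and 9.16 with intervals that include it.

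Peaks stood at the starts of SoxC genes. Among the 6 SOX genes with a RefSeq promoter window, SOX4 and SOX12 had a peak within 1 kb of the start, and SOX2, SOX5, SOX6 and SOX13 had none. The absence at SOX2, SOX5, SOX6 and SOX13 was fixed by their lack of any peak within 50 kb, so it adds nothing to the contrast. Of the 15811 protein-coding genes with such a window, 2471 (15.6%) had a peak within 1 kb of a start. SOX11 has no window in that table and is not in this count. Its nearest peak lay 544 bases from the gene body, as given above.

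The progenitor and glial genes differed in how far away the nearest peak lay. SOX8, the SoxE gene on chromosome 16, was the closest, with a peak 60.8 kb away at chr16:920783-920992 inside LMF1, a gene for a factor of lipase maturation. That peak was enriched 11.1-fold at a −log10 q of 16.7, with 22 reads (13.8 to 33.3), and its fold enrichment was above that of 7 of the 8 SoxC peaks. SOX10, the SoxE gene of Schwann cell precursors, had its nearest peak 128 kb away inside ANKRD54, with a fold enrichment of 7.23. For SOX13 the distance was 172 kb, to a peak inside PLEKHA6 with a fold enrichment of 6.66. Each of these nearest peaks overlapped another gene.

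SOX9, the SoxE gene of neural crest and cartilage, lies on chromosome 17 from 72121020 to 72126416 without another protein-coding gene within 50 kb. The nearest peak was at chr17:72379035-72379265, 253 kb beyond the gene toward higher coordinates and 23.9 kb from the nearest annotated gene, LINC02003. SOX9 was the protein-coding gene nearest to it. Its fold enrichment of 4.17, from 16 reads (9.15 to 26.0) over a background of 3.0, placed it at rank 5937. This was the only one of the 7 genes whose nearest peak had the SOX gene itself as the nearest protein-coding gene.

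The long SoxD genes and SOX2 were farthest from a peak. The body of SOX5 covers 1030 kb of chromosome 12 and that of SOX6 covers 772 kb of chromosome 11, yet neither held a peak. Of 314 protein-coding genes with a body over 500 kb, 172 (54.8%) had a peak in the body or within 50 kb. The nearest peak was 538 kb from SOX6, inside NUCB2. SOX2, on chromosome 3 from 181711925 to 181714436, was 1390 kb from its nearest peak, which lay inside MCCC1, and 6.62% of protein-coding genes were farther from a peak. The median distance over all protein-coding genes was 94.9 kb, and SOX8 alone of the 7 was nearer than that.

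**Figure D3:**
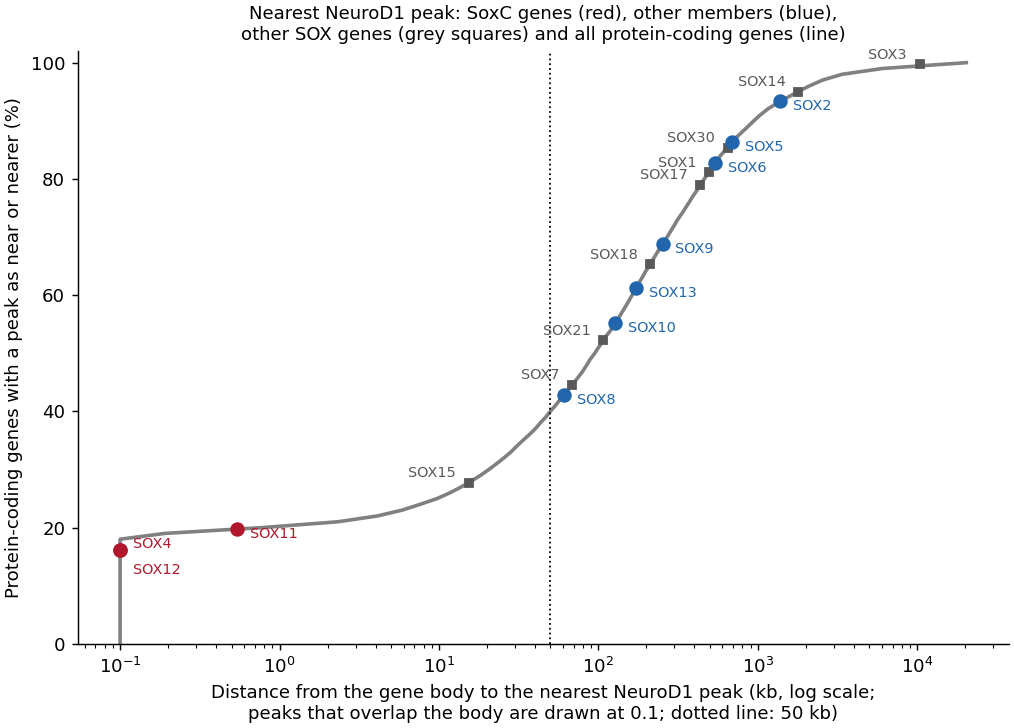
The line gives the percent of protein-coding genes that have a NeuroD1 peak as near as or nearer than the distance on the x axis (kb, log scale), and the points place the SoxC genes (red), the other members (blue) and other SOX genes (grey squares) on it. SOX4 and SOX12 have a peak in the body and SOX11 at 0.544 kb, whereas the 7 progenitor and glial genes lie between 60.8 and 1390 kb, beyond the dotted line at 50 kb.

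Counted per length, the SoxC windows held 8 peaks in 318.6 kb, or 2.51 per 100 kb, and the windows of the other 7 genes held 0 in 2585.0 kb. A count of 0 allows up to 3 peaks, or 0.116 per 100 kb, and the density at the SoxC genes lay 4.44 above that floor on the log2 scale. The counting error of the 8 peaks, among them the one at the NRSN2 start, is not included in this value, so it is no bound on the difference. Over the windows of all protein-coding genes the density was 0.430 per 100 kb. SOX5 and SOX6 make up most of the 2585.0 kb, and without them the value was 2.28. Adjoining peaks of 1 gene are not independent, which this count does not take into account.

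The shares on the chromosomes that carry the genes overlapped between the groups. On chromosomes 6, 2 and 20, which carry the SoxC genes, 37.9%, 40.3% and 43.9% of protein-coding genes had a peak within 50 kb. On the chromosomes of the other 7 genes the share ran from 35.6% on chromosome 3, with SOX2, to 60.0% on chromosome 17, with SOX9. Chromosome 12, with SOX5, had 56.8%. Among the 2089 peaks at the background of 1.04, the fewest reads at a summit were 8. The background near the 7 genes without a peak is not known, so the fewest reads that would have been called there cannot be given, and weaker sites near them may not have been detectable at this depth.

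All 3 SoxC genes kept a peak when the window was narrowed to 25, 10 and 3 kb. From 3 to 25 kb the share of all protein-coding genes with a peak rose from 21.4% to 31.7%. The other 7 genes had 0 peaks in the wider window used above. Their count of 0 in these narrower windows was therefore fixed in advance and adds nothing to the contrast. In the body alone, SOX4 and SOX12 had a peak and SOX11 did not. Only the 100 kb window could add a peak to the other 7 genes. There the SOX8 peak in LMF1 came in, and 51.0% of all protein-coding genes had a peak.

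**Figure D4:**
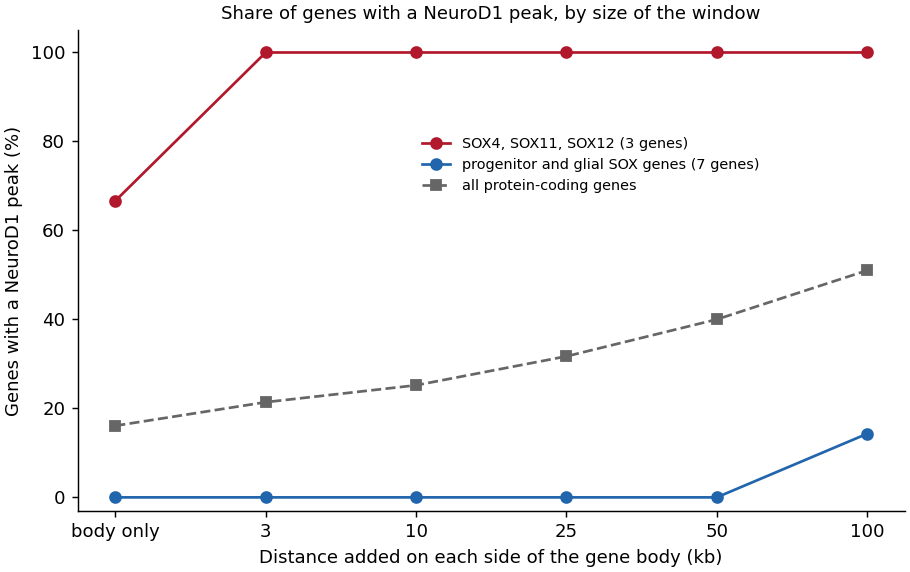
The y axis gives the percent of genes with a NeuroD1 peak, and the x axis the distance added on each side of the gene body, in steps that are not to scale. All 3 SoxC genes (red) have a peak from 3 kb outward, the 7 progenitor and glial genes (blue) have none up to 50 kb and 1 at 100 kb, and all protein-coding genes (grey) rise from 16.1% to 51.0%.

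Among 9 other SOX genes, SOX1, SOX3, SOX7, SOX14, SOX15, SOX17, SOX18, SOX21 and SOX30, only SOX15 had a peak by the same rule, against 40.0% of all protein-coding genes. A set of 9 genes is too small to tell its share from 40.0%. SOX1, SOX3, SOX14 and SOX21 had no other protein-coding gene within 50 kb, and of all such isolated genes 26.5% had a peak. SOX15 lies on chromosome 17 in a window with 10 other protein-coding genes, and both of its peaks were nearest to other genes. The peak 15.3 kb away had a fold enrichment of 8.28 with 21 reads (13.0 to 32.1) and overlapped EIF4A1. The peak 37.7 kb away had a fold enrichment of 5.23 and overlapped SHBG and SAT2. For SOX1 and for SOX3 on chromosome X, which like SOX2 are SoxB genes of neural progenitors, the nearest peak was 494 and 10300 kb away. For SOX21 it was 108 kb away.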

How the data were processed

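NeuroD1 ChIP-seq of 1 IMR-32 library was used as the deposited peak list. Per the labels, reads were aligned to hg38 with BWA 0.7.17 and peaks were called with MACS2 2.2.7, whereas the peak names in the list say macs3. How the control entered the calling, and at which q, is not given in the sources used here. The authors deposited for each peak its interval, its summit, a score (10 times the −log10 q, as a whole number), the fold enrichment over the local background as a ratio, and the −log10 p-value and −log10 q-value at the summit. The last deposited column repeats the fold enrichment divided by peak width.

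ChIP reads and background were solved from the fold enrichment and −log10 p with the Poisson formula of the peak caller. Fold enrichment was taken as the weighted reads plus 1, divided by the background plus 1. The weight of 1 read, 0.98, came from evenly spaced fold enrichments of peaks that shared a background of 1.04. The total depth of the library is unknown. Read intervals are exact Poisson intervals at 95% and cover counting error only.

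Genes were RefSeq genes of GRCh38.p14, the same assembly as hg38. Peaks were counted on any overlap with the body extended by 50 kb, and at starts within 1 kb of those given by the promoter windows. Positions count from 1. The 10 genes, the list of 9 other SOX genes and the groups were chosen with earlier results of these data known. Named genes were all members, the 9 other SOX genes, and the genes nearest to or overlapped by their peaks. The peak nearest to SOX5 is not reported here. The genes LINC01248, NRSN2-AS1, NRSN2 by its start, LINC02003, SHBG, SAT2 and those of the closing section were named after their values were seen. E-boxes at summits outside promoters were not examined. With 1 library no test was run. The alternatives were other distances, a minimum of 5 for the −log10 q or the fold enrichment, the summit alone, the nearest protein-coding gene, the long genes left out, and the rank by −log10 q. The tools were pandas 2.3.3 and numpy 2.4.6 for tables, scipy 1.17.1 for intervals and matplotlib 3.10.9 for plots, under Python 3.11.15.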

Additional observations from a re-analysis of the deposited data

How the results depend on the processing

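Of 51 alternative values, 36 stayed within the limits set for a change, 15 moved and 0 reversed. Only the 10 values of the log2 ratio could have been marked as reversed. Most of those were set against a fixed floor of 3 peaks, so the absence of a reversal says little. The number of SOX genes with a peak (3) was 2 in the body alone and 4 at 100 kb, and 3 in the other 8 settings. The number of peaks near them (8) was 3 in the body alone and 5 within 3 kb. The log2 ratio of peak density, 4.44 against the floor of 3 peaks, was 6.67 for the body alone, 6.46 within 3 kb, 5.69 within 10 kb, 5.14 within 25 kb and 2.28 without SOX5 and SOX6, all against that floor, and 5.41 as a ratio of counted peaks at 100 kb. The share of protein-coding genes with a peak (40.0%) was 16.1% for the body alone, 21.4% within 3 kb, 25.2% within 10 kb, 31.7% within 25 kb, 51.0% at 100 kb, 33.8% at a minimum −log10 q of 5 and 37.5% at a minimum fold enrichment of 5, as fewer peaks or smaller windows require. The difference in median fold enrichment had no value up to 50 kb, since the other 7 genes had no peak. At 100 kb the median was 6.10 at the SoxC genes and 11.1 for the 1 peak near SOX8. No paired analysis was possible because a single ChIP library was deposited. With that library and 10 to 29 reads a summit, no peak has a replicate check.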

Other observations

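Among long non-coding RNA genes named after SOX genes, 3 were examined and had no peak. SOX2-OT, which holds SOX2 within its body, covers 686 kb of chromosome 3 and had 0 peaks in the body or within 50 kb. SOX5-AS1 on chromosome 12 and SOX9-AS1 on chromosome 17 had 0 as well. The windows of these 3 genes lie inside the stretches around SOX2, SOX5 and SOX9 already found without a peak. Their counts of 0 were therefore fixed in advance and add nothing to the contrast. LINC01248 beside SOX11 and NRSN2-AS1 beside SOX12 each held 1 of the peaks described above in their bodies. Of 18177 long non-coding RNA genes, 5.37% had a peak in the body and 23.7% had one in the body or within 50 kb. These 5 genes were singled out after their values were seen, and no difference between them was tested.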
